A study of Mus musculus with 16 samples.

Results

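The genes of synaptic vesicle fusion described here, 8 of the 43472 gene symbols in the deposited count tables, were followed in mouse brain: the vesicle SNARE genes Vamp1 and Vamp2, the plasma membrane SNARE genes Snap25 and Stx1a, the calcium sensor Syt1, the complexins Cplx1 and Cplx2, and Syp, which encodes synaptophysin. They were chosen by name for their function, with earlier results of these data known. All 8 were found and passed the filter on low counts in every comparison. The study set up 4 groups of 4 libraries of brain tissue: wild types kept as controls for Prepl knockout, Prepl knockout mice, wild types kept as controls for PWS-IC deleted, and PWS-IC deleted mice. Prepl encodes a peptidase-like hydrolase, and people who lack it have a congenital myasthenic syndrome, and PWS-IC is the imprinting centre that keeps the paternal genes of the Prader-Willi region active. The series asked how far both models share changes in gene expression. The labels used here give no age, strain, brain region or parent of origin of the deletion, and do not say whether each library is a separate animal. A p-value here therefore reflects how far these libraries scatter, which may be technical.

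Neurotransmitter release rests on the fusion of vesicles with the presynaptic membrane. A vesicle SNARE (synaptobrevin, made from Vamp1 or Vamp2) zips together with syntaxin-1 (Stx1a) and SNAP-25 (Snap25) on the plasma membrane; complexins hold and prime the partly zipped complex, and synaptotagmin-1 (Syt1) triggers fusion when calcium enters. In the brain Vamp2 is the main vesicle SNARE of the forebrain, whereas Vamp1 is known for the neuromuscular junction, spinal cord and brainstem, and defects in VAMP1, SNAP25 and SYT2 are known in people as causes of presynaptic myasthenic syndromes.

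The start regions of Syt1, Cplx1 and Cplx2 are shown because these 3 of the 8 genes were called lower together in the PWS-IC wild types than in the Prepl wild types, a contrast in which 24.4% of all genes were called. RefSeq windows on GRCm38.p6, from 250 bases before to 50 bases after a start site, were present for 6 of the 8 genes (7 windows, of which Syt1 has 2); Vamp2 and Snap25 had no entry. Each is printed 5′ to 3′ on the gene's own strand. Capitals mark every match, on either strand, to the GC box GGGCGG, the CCAAT box CCAAT, the TATA box TATAAA, the cyclic AMP response element TGACGTCA and its short form TGACG, which lies inside it, the E box CACGTG, the AP-1 site TGANTCA, and the left and right arms TTCAGCACC and GGACAGC of the REST element, the site of a repressor of neuronal genes. The Syt1 window is the upstream one, chr10:109010926-109011225 on the minus strand, and the Cplx1 window is chr5:108549978-108550277 on the minus strand. The Cplx2 window is chr13:54302306-54302605 on the plus strand. It lies upstream of the start of Cplx2 in GENCODE M21, at 54371349, and does not cover that start.
Syt1: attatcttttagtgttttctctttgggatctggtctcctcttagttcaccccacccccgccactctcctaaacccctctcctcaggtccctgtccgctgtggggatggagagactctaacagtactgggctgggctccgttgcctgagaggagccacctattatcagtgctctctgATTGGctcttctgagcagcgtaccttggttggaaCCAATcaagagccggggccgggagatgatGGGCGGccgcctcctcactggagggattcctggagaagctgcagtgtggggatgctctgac
Cplx1: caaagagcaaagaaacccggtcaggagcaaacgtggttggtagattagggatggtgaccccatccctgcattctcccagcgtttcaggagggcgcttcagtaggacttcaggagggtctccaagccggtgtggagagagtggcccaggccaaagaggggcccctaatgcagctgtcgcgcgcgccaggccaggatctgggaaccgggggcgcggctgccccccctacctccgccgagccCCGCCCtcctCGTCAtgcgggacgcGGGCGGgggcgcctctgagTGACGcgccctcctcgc
Cplx2: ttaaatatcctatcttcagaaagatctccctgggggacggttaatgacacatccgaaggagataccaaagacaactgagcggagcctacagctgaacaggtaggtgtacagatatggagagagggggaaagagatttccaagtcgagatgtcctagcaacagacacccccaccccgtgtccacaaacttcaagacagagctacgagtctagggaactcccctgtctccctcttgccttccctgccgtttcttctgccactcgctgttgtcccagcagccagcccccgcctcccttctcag
The Syt1 window held 2 CCAAT boxes and 1 GC box, the Cplx1 window 2 GC boxes and 2 short forms of the response element, and the Cplx2 window no match to any of these motifs. Of 32851 mouse start windows of 300 bases, 35.7% held a GC box, 37.4% a CCAAT box, 20.8% the short form TGACG, 13.6% a TATA box, 6.56% the right and 0.371% the left arm of the REST element. The full response element was held by 1.79%, the E box by 7.15% and the AP-1 site by 7.81%. The GC box was in the Syt1 and Cplx1 windows and also in those of Vamp1, Stx1a and Syp, which were not called between the wild types. The second Syt1 window held no match. A match describes these letters and is not a measured binding site.

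Levels are given as CPM, the reads of a gene scaled to 1e+06 reads in genes of the same library. The libraries were made with Lexogen QuantSeq, which reads the poly(A) end of each transcript, so a count does not grow with transcript length. CPM is therefore set side by side between genes, but how fully the reads of each gene were counted was not tested. Each library had between 3477624 and 5852716 reads in genes, of which the 8 genes together held 0.139% to 0.215%. The targeted genes followed the labels: Prepl was at 34.8 ± 1.35 CPM in its wild types and 1.64 ± 0.453 CPM in the knockouts. Ndn, a paternally expressed gene of the Prader-Willi region, was at 556 ± 11.1 CPM in the PWS-IC wild types and 4.30 ± 1.90 CPM in the deleted mice. Snrpn, checked in the same way, was at 344 ± 14.5 and 29.2 ± 4.95 CPM in these groups (SD, n = 4). By Xist and Y-linked reads, the Prepl wild types were 3 females and 1 male and the knockouts 4 males, while both PWS-IC groups held 2 of each sex. Reads aligned outside genes made up 11.4% to 13.7% of tabled reads in the PWS-IC wild types and 17.7% to 20.1% in the deleted mice; in the Prepl model the means were 17.0% ± 1.76 and 17.7% ± 1.24 (SD, n = 4). In the same PWS-IC comparison 4 of 6 blood, 5 of 8 meningeal and 3 of 7 choroid plexus markers tested were lower. The part that any of these library differences plays in the results below was not tested.

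Syt1 was the most abundant of the 8 messages, with a mean of 550 CPM over the 16 libraries, and Vamp2 came next at 432 CPM. Snap25 at 202 CPM, Cplx2 at 199.8 CPM and Syp at 179 CPM lay together, and Cplx1 at 94.2 CPM and Stx1a at 82.4 CPM below them. Vamp1 was the rarest, at 28.5 CPM, with 21.4 to 38.9 CPM across the libraries. Markers of neurons were abundant in every group, with 12 pan-neuronal genes summing to 8086 to 9197 CPM, and none of them at 0. In bulk tissue, fewer cells of a type and less RNA per cell cannot be told apart.

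**Figure D1:**
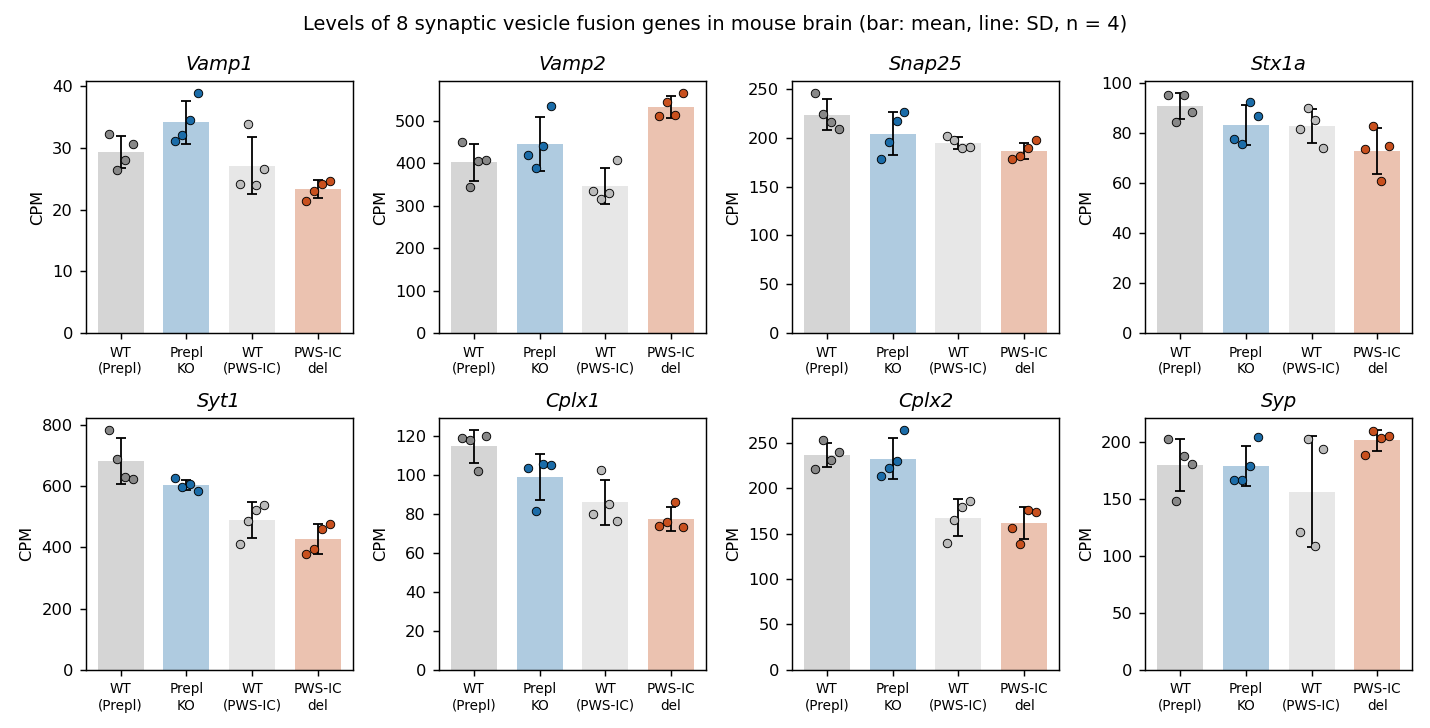
Level in CPM (vertical axis, from 0) of each of the 8 genes in the 4 groups of 4 libraries; points are libraries in the order of their replicate numbers, bars are means and lines are SD. Vamp2 in the PWS-IC deleted mice, at 511 to 566 CPM, lies above its wild types at 316 to 409 CPM, while in the wild types of that model Syp falls into a pair near 200 CPM and a pair between 109 and 121 CPM.

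In the PWS-IC deleted brain Vamp2 rose, and it was the only one of the 8 genes to pass the test. Vamp2 (chromosome 11, 69088490 to 69092384, plus strand), whose product synaptobrevin-2 sits on nearly every synaptic vesicle, stood at 334, 316, 329 and 409 CPM in wild-type replicates 1 to 4 and at 511, 545, 513 and 566 CPM in the deleted replicates. Each deleted library was above each wild-type library. The means were 347 ± 42.0 and 534 ± 26.4 CPM (SD, n = 4), and the log2 fold change was 0.63 ± 0.0866 (SE; adjusted p = 0.000244 by the quasi-likelihood test of edgeR with Benjamini-Hochberg correction), a rise of 54.6% with a 95% interval of 36.4% to 75.2%. One called gene of 8 is to be read against 4.52% of the 13636 genes tested, 616 genes, of which 404 were higher (2.96%). Among the 6302 genes at least as abundant as Vamp1, 6.73% were called. Of the 404 genes called higher, 171 had a larger log2 fold change than Vamp2.

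Among abundant messages a rise of this size was uncommon: of the 281 genes with an average level at least that of Vamp2, 37 were called higher, 14 were called lower, and 4 had a larger log2 fold change than Vamp2. Leaving out any 1 of the 8 libraries kept the call, with log2 fold changes of 0.59 to 0.71, and with sex as a term it was 0.63. Vamp2 has no annotated gene overlapping it, and no other transcript of GENCODE M21 matched its longest coding transcript over 100 bases at 85% identity or more. The deleted libraries also lay above all 4 Prepl wild types, which ran from 345 to 451 CPM, but not above Prepl knockout replicate 4, at 535 CPM. Beside the Vamp2 rise, the 12 pan-neuronal markers summed to 8229 to 8566 CPM in the PWS-IC wild types and 8513 to 9197 CPM in the deleted mice, with 1 of 12 called, Elavl3 at 0.30. Hindbrain and motor markers, 145 to 260 and 204 to 275 CPM, had none called. Blood markers summed to 1798 to 3972 and 1205 to 1630 CPM.

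Vamp1, the rarer synaptobrevin (chromosome 6, 125215551 to 125245964, plus strand), did not pass the test. Its levels were 24.1, 33.9, 24.0 and 26.7 CPM in the PWS-IC wild types and 21.4, 23.0, 24.2 and 24.7 CPM in the deleted mice, where the groups overlapped. The log2 fold change was -0.21 ± 0.145 (edgeR's quasi-likelihood test, adjusted p = 0.472), with a 95% interval of -0.51 to 0.09. The balance between both genes, which does not depend on how libraries are scaled, was read within each library: Vamp1 had 7.21, 10.7, 7.29 and 6.52 reads per 100 Vamp2 reads in the wild types and 4.19, 4.23, 4.71 and 4.36 in the deleted libraries. These ranges did not overlap, and the 8 libraries of the Prepl model, at 6.94 to 8.26, lay within the range of the PWS-IC wild types. Since the ratio contains Vamp2, which was called on its own, its separation is not a result apart from the Vamp2 rise. How often other pairs of genes separate was not tested. The genes Tapbpl and Cd27 lie inside Vamp1 on the opposite strand, with 432 and 32 reads over all libraries against 2338 for Vamp1. The strand setting of the counting is not given in the sources used here.

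Syp, which encodes the vesicle membrane protein synaptophysin (chromosome X, 7638471 to 7653256, plus strand), had a higher mean in the deleted mice but did not pass the test. The wild types stood at 121, 203, 109 and 194 CPM and the deleted mice at 189, 210, 204 and 205 CPM. Wild-type replicates 2 and 4 were thus at the level of the deleted mice, while replicates 1 and 3 were lower than every other library of the study. Each of these pairs held 1 male and 1 female. The log2 fold change was 0.37 ± 0.151 (edgeR's quasi-likelihood test, adjusted p = 0.187), and without wild-type replicate 2 it was 0.53 with an adjusted p of 0.0259. Of 10 alternative settings that kept all libraries, 2 called Syp. These were the fit with no low-count filter, at 0.35 with an adjusted p of 0.0110 by edgeR, and the replicate block. The labels do not say that replicate numbers pair libraries. Gm14703, an antisense transcript over the end of Syp, had 17 reads in all 16 libraries.

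The other 5 genes had log2 fold changes below 0 in the deleted brain, none of which passed the test. Syt1 (chromosome 10, 108497650 to 109010982, minus strand) was at 409, 487, 522 and 540 CPM in the wild types and 377, 394, 460 and 476 CPM in the deleted mice. Replicates 1 and 2 were male and 3 and 4 female in both groups, so in each group every female lay above every male. The same held for Cplx2 and for no other of the 8 genes. The wild-type and deleted ranges of Syt1 overlapped, and the log2 fold change was -0.19 ± 0.0930 (edgeR's quasi-likelihood test, adjusted p = 0.280). For the plasma membrane SNAREs it was -0.17 ± 0.107 for Stx1a (chromosome 5, 135023482 to 135051100, plus strand), which went from 82.7 ± 6.83 to 73.0 ± 9.22 CPM, and -0.06 ± 0.0788 for Snap25 (chromosome 2, 136713453 to 136782428, plus strand), from 195 ± 5.81 to 186 ± 8.68 CPM. The 95% interval for Snap25, -0.22 to 0.11, does not reach the size of the Vamp2 rise in either direction. Of the complexin genes, Cplx1 (chromosome 5, 108518554 to 108550024, minus strand) was at -0.15 ± 0.106, with a 95% interval of -0.37 to 0.07. Cplx2 (chromosome 13, 54371349 to 54383917, plus strand) was at -0.05 ± 0.0970, with an interval of -0.25 to 0.16. Of the 8 genes 6 were below 0, with a median of -0.10, beside 52.4% below 0 and a median of -0.01 over all genes tested. Groups without overlap were seen in 1 of 8 genes, Vamp2, and in 11.8% of all genes tested, and an unadjusted p under 0.05 in 2 of 8 and in 18.2%.

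The level of Vamp2 was also read against that of Syt1, the calcium sensor on the same vesicles. Per 100 Syt1 reads, Vamp2 had 81.6, 64.8, 63.1 and 75.7 reads in the PWS-IC wild types and 136, 138, 112 and 119 reads in the deleted mice. The lowest deleted library was above every library of the other groups, the highest of which was Prepl knockout replicate 4 at 91.5. This ratio also contains Vamp2, so it is not a result apart from the Vamp2 rise. Cplx1 per 100 Cplx2 reads, 40.9 to 62.0 in the wild types and 42.1 to 54.3 in the deleted mice, overlapped.

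**Figure D2:**
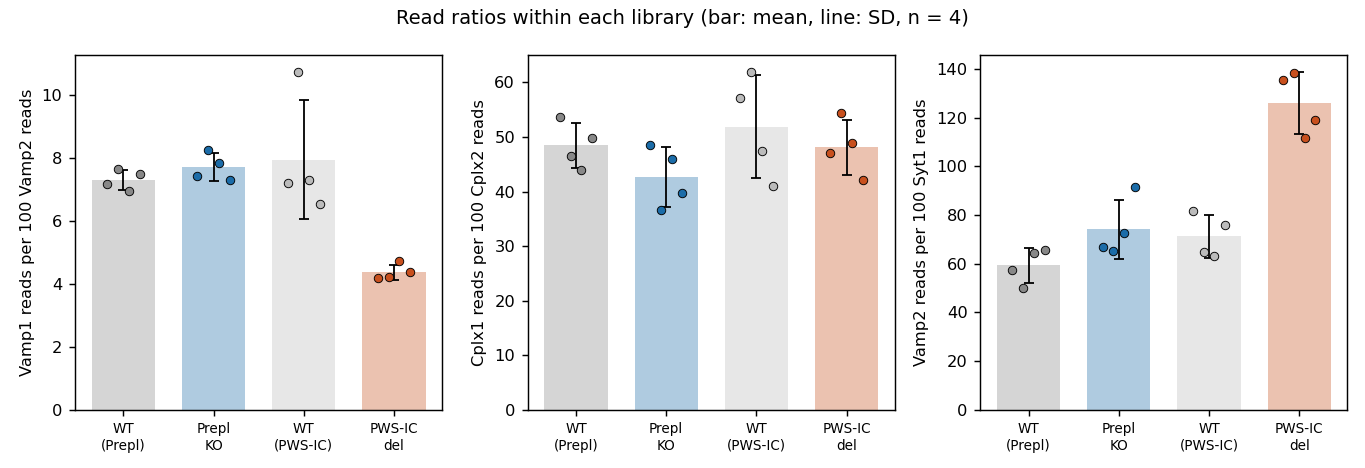
Reads of one gene per 100 reads of another within each library (vertical axes, from 0), by group; points are libraries in replicate order, bars are means and lines are SD (n = 4). The Vamp1 to Vamp2 ratio of the PWS-IC deleted mice, 4.19 to 4.71, lies below all other libraries, the Vamp2 to Syt1 ratio, 112 to 138, above all others, and the complexin ratio overlaps in all groups. Both ratios that separate contain Vamp2, the gene called in the PWS-IC deletion.

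In the Prepl knockout brain none of the 8 genes passed edgeR's quasi-likelihood test; 3 had an unadjusted p under 0.05, and DESeq2 and limma voom called 0 as well. In this comparison 0.262% of 13722 genes were called, 9.43% had an unadjusted p under 0.05 and 5.69% had groups without overlap, which none of the 8 had. Of the 8 genes 4 were below 0, beside 49.9% of all genes. The vesicle SNARE genes had the highest log2 fold changes of the 8. Vamp1 stood at 32.3, 26.4, 28.1 and 30.7 CPM in the wild types and 31.2, 32.1, 34.5 and 38.9 CPM in the knockouts, a log2 fold change of 0.26 ± 0.113 (adjusted p = 0.479 by edgeR). Vamp2 stood at 451, 345, 405 and 409 CPM in the wild types and at 419, 389, 441 and 535 CPM in the knockouts, or 0.18 ± 0.0878 (adjusted p = 0.524 by edgeR). In both genes the groups overlapped and knockout replicate 4 was the highest library of the model. The Vamp1 to Vamp2 ratio, 6.94 to 7.64 in the wild types and 7.28 to 8.26 in the knockouts, overlapped too.

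Syt1 and Cplx1 had the lowest log2 fold changes in the knockout, again without passing. Syt1 was at 785, 690, 629 and 622 CPM in the wild types and 626, 598, 606 and 584 CPM in the knockouts (log2 -0.14 ± 0.0731; adjusted p = 0.570 by edgeR). Wild-type replicate 1 stood highest, and the only male wild type, replicate 4, was at 622 CPM, within the range of the male knockouts. With sex as a term in a fit of all 16 libraries the log2 fold change of Syt1 was 0.01. That sex term is shared by all groups and draws also on the PWS-IC groups, with 2 females and 2 males each. Within the Prepl model only the wild types, with 1 male, inform it, since the knockouts were all male. Whether sex acts alike in both models was not tested. Cplx1 was at 119, 118, 102 and 120 CPM in the wild types and 104, 81.5, 106 and 105 CPM in the knockouts (log2 -0.18 ± 0.0848; adjusted p = 0.527 by edgeR).

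For Snap25, Stx1a, Cplx2 and Syp the log2 fold changes in the knockout were -0.09 ± 0.0788, -0.09 ± 0.0832, 0.01 ± 0.0729 and 0.03 ± 0.0880. The 95% interval of Cplx2, -0.14 to 0.16, was the narrowest of the 8, and that of Vamp1, 0.03 to 0.49, the widest. These intervals are not corrected for the number of genes tested. Those of Vamp1, Vamp2 and Cplx1 left out 0, yet none of these genes was called. Changes of about their size could thus be missed at this depth and number of libraries.

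**Figure D3:**
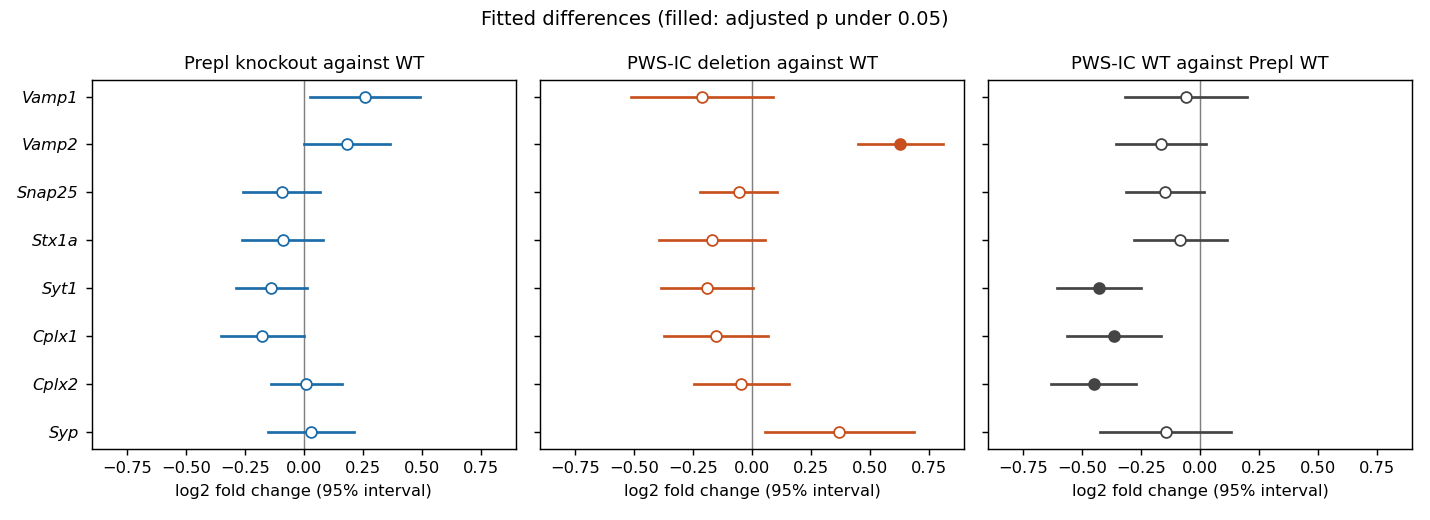
Log2 fold change (horizontal axis) with its 95% interval for each of the 8 genes in the Prepl knockout, in the PWS-IC deletion, and between both wild-type groups; filled points passed an adjusted p of 0.05. Vamp2 at 0.63 is the only filled point in the mutants, and Syt1, Cplx1 and Cplx2 at -0.43, -0.37 and -0.45 are filled between the wild types.

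The 2 mutant effects were compared directly as the knockout effect minus the deletion effect over all 16 libraries. None of the 8 genes passed edgeR's quasi-likelihood test, where 0.778% of 14392 genes did; 2 had an unadjusted p under 0.05, as did 11.7% of all genes, limma voom called 0 and DESeq2 called Vamp2. For Vamp2 the difference was -0.45 ± 0.133 (adjusted p = 0.127 by edgeR), with a range of adjusted p from 0.0332 to 0.245 over the other settings and left-out libraries. For Vamp1 it was 0.47 ± 0.182 (adjusted p = 0.284 by edgeR), with opposite signs of the effect in both models. By the edgeR test the Vamp2 effects of both models are thus not shown to differ. For Syp it was -0.34 ± 0.193 (adjusted p = 0.511 by edgeR). For Snap25, Stx1a, Syt1, Cplx1 and Cplx2 the differences lay between -0.04 and 0.07.

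The control groups themselves differed in 3 of the 8 genes. The PWS-IC wild types were lower than the Prepl wild types in Cplx2 (168 ± 20.5 against 237 ± 13.5 CPM; log2 -0.45 ± 0.0880, adjusted p = 0.000329), in Syt1 (490 ± 57.8 against 681 ± 75.2 CPM; log2 -0.43 ± 0.0864, adjusted p = 0.000468) and in Cplx1 (85.9 ± 11.7 against 115 ± 8.46 CPM; log2 -0.37 ± 0.0979, adjusted p = 0.00629), all by edgeR's quasi-likelihood test. In the same contrast 24.4% of 14392 genes were called, and 35.6% of the 5940 genes at least as abundant as Vamp1, so 3 of 8 is near the background. The groups did not overlap in Syt1, Cplx2 and Snap25, beside 24.3% of all genes. All 8 log2 differences were below 0, as were 50.1% of all genes, and 3 of 8 had an unadjusted p under 0.05, beside 36% of all genes. With a sex term over all 16 libraries the log2 differences were -0.38 for Syt1, -0.39 for Cplx1 and -0.42 for Cplx2, each still called. The labels give no batch, so other differences between the wild-type groups cannot be told apart. The other 5 genes were not called, with Vamp2 at -0.17 ± 0.0939, Snap25 at -0.15 ± 0.0806, Syp at -0.15 ± 0.136, Stx1a at -0.08 ± 0.0968 and Vamp1 at -0.06 ± 0.127. In order of mean level, Syt1, Cplx1, Cplx2, Snap25 and Stx1a ran from the Prepl wild types through the knockouts and the PWS-IC wild types to the deleted mice. Neighbours in that order overlapped, except that the knockouts lay above the PWS-IC wild types in Syt1 and in Cplx2. Vamp2 ran from the deleted mice through the knockouts and the Prepl wild types to the PWS-IC wild types, with each neighbour overlapping the next.

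The wider machinery was read from 130 genes in 6 lists, all in the count tables. In the Prepl knockout edgeR, DESeq2 and limma voom called none of the 123 tested; 9 had an unadjusted p under 0.05 by edgeR, and the median log2 fold change was -0.03 beside 0.00 over all genes. In the PWS-IC deleted brain 1 of 122 rose and 3 fell by edgeR, beside 4.52% called among all genes, and the median was 0.03 beside -0.01. DESeq2 called 3 higher and 3 lower, and limma voom 2 higher and 3 lower.

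Among the 26 other SNAREs, 1 fell in the deleted brain and none rose. It was Snap47, a SNARE related to SNAP-25 without its membrane anchor, which stood at 220, 238, 219 and 241 CPM in the wild types and at 148, 186, 166 and 163 CPM in the deleted mice. No deleted library reached the wild types, and the log2 fold change was -0.46 ± 0.0880 (adjusted p = 0.00415 by edgeR), with the call kept whichever library was left out.

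Of 15 tested calcium sensor genes 2 fell. Syt3, a synaptotagmin with high calcium affinity, went from 30.9 ± 5.26 to 19.8 ± 3.10 CPM (log2 -0.63 ± 0.157; adjusted p = 0.0253 by edgeR), and Syt5, a vesicle synaptotagmin, from 102 ± 8.51 to 78.6 ± 6.52 CPM (log2 -0.36 ± 0.0919; adjusted p = 0.0271 by edgeR). Neither pair of groups overlapped, which held for 11.8% of all genes tested. For Syt3 the groups nearly touched, at 24.43 CPM in the lowest wild type and 24.39 CPM in the highest deleted library. For each gene 5 of 8 left-out libraries ended the call, with log2 fold changes of -0.75 to -0.54 for Syt3 and -0.42 to -0.32 for Syt5.

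Of 26 active zone and priming genes 1 rose: Rims4, a short member of the RIM family of active zone proteins, at 115 ± 9.17 and 142 ± 2.85 CPM (log2 0.31 ± 0.0863; adjusted p = 0.0445 by edgeR). Leaving out 1 library ended this call for 7 of the 8 libraries. In this list DESeq2 called 2 genes higher and limma voom 1. No gene was called by edgeR among 12 fusion partners such as Nsf (1 at an unadjusted p under 0.05, 0 by DESeq2 and limma voom), 23 vesicle proteins (6 at an unadjusted p under 0.05, 1 by DESeq2 and by limma voom) or 20 endocytosis genes (2 at an unadjusted p under 0.05, 0 by DESeq2 and limma voom).

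**Figure D4:**
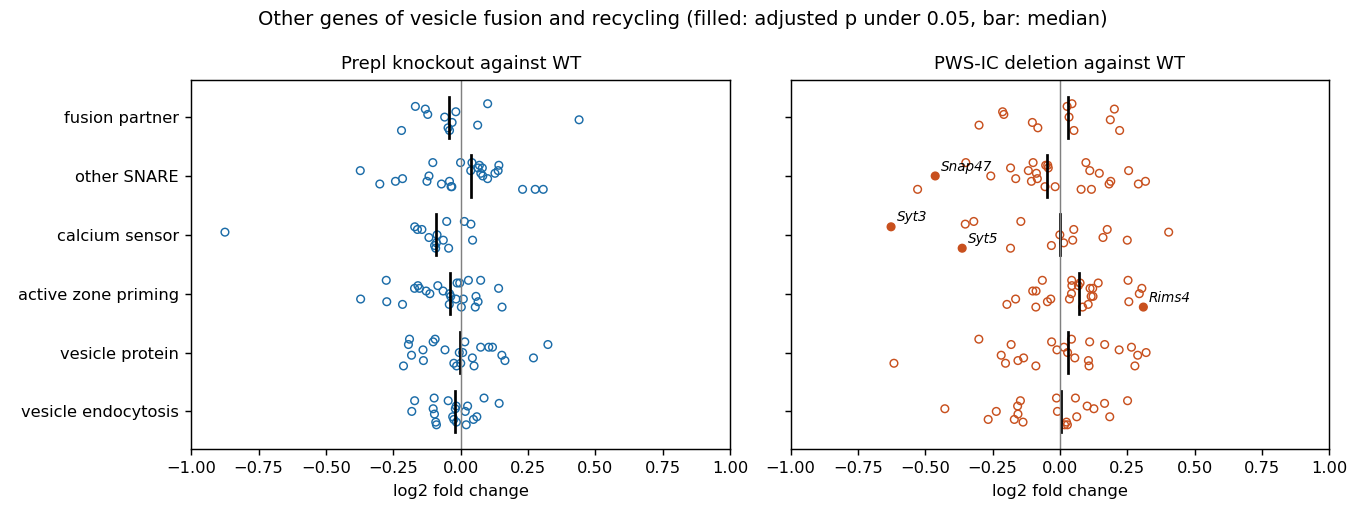
Log2 fold change (horizontal axis) of each tested gene of 6 lists of the release and recycling machinery in the Prepl knockout and the PWS-IC deletion; filled and named points passed an adjusted p of 0.05 and black bars are list medians. The called genes are Snap47, Syt3 and Syt5 below 0 and Rims4 above 0, all in the PWS-IC deletion.

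Between the wild types 38 of 123 tested genes of these lists were lower in the PWS-IC controls and 9 higher, where 12.1% and 12.3% of all genes were. Active zone and priming genes had 18 of 26 lower and none higher, with a median of -0.37. Those named by the fixed rule were Pclo, the scaffold Piccolo, at -0.86 ± 0.0924, the presynaptic calcium channel subunits Cacna1b at -0.78 ± 0.108 and Cacna1a at -0.64 ± 0.0983, and Ppfia4, a liprin, at -0.60 ± 0.114. Among calcium sensors Rph3a, Syt5, Syt6 and Syt3 lay between -0.72 and -0.42, among fusion partners Stxbp5l, Nsf and Dnajc5 between -0.77 and -0.29, and among vesicle proteins Syngr3, Syn3, Syngr1 and Sv2c between -1.55 and -0.35. Other SNAREs went both ways, Vamp3, Bet1l and Stx6 being higher at 0.52, 0.45 and 0.42 and Vti1a lower at -0.64, as did endocytosis genes, with Sh3gl2 at 0.41 and Itsn2, Dnm3 and Synj1 at -0.63, -0.44 and -0.32. All these are edgeR log2 differences, PWS-IC minus Prepl wild types. Glutamatergic markers, 7 genes, summed to 1268 to 1727 CPM in the Prepl wild types and 934 to 1235 CPM in the PWS-IC wild types. Of these 7 genes 2 were called lower and 3 had log2 differences above 0. Nrgn held much of that sum, at 661 ± 168 and 353 ± 42.4 CPM, while Neurod6 stood at 288 ± 12.3 and 328 ± 66.6 CPM (SD, n = 4). GABAergic markers, 7 genes, summed to 524 to 546 and 396 to 466 CPM. Of the 6 tested, 3 were called lower and 1 was above 0. Hindbrain and motor markers, 13 genes, summed to 149 to 203 and 145 to 260 CPM. Blood markers summed to 661 to 1147 and 1798 to 3972 CPM, with 5 of 6 called higher. Oligodendrocyte markers summed to 155 to 229 and 109 to 120 CPM, and endothelial markers to 114 to 131 and 89.0 to 103 CPM. Their part in these differences was not tested.

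For each of the 8 genes the other genes whose log2 CPM ran most like it over the 16 libraries were sought among 8019 genes, as a description in which group, depth and dissection are shared by all points. Syt1 ran closest to Camk2a, a kinase of excitatory forebrain neurons (Pearson r = 0.97 over 16 libraries, 0.89 after group means were removed), and to Cit (0.97 and 0.95). Cplx2 ran with Celf4 and Npr2 (0.95 and 0.94, falling to 0.67 and 0.72 within groups). Cplx1 ran with Arhgdig and Lsm11 (0.90 and 0.88, within groups 0.71 and 0.65). Snap25 ran with Sv2b, a vesicle protein, and Atp1b1 (0.89 and 0.85, within groups 0.89 and 0.76). Stx1a ran with Arhgdia and Tmem80 (0.88 and 0.87, within groups 0.82 and 0.83). Vamp1 ran with Vgf and Lmtk3 (0.88 and 0.86, within groups 0.86 and 0.58). Syp ran less closely with Eri3 and B3gnt1 (0.77 and 0.74, within groups 0.69 and 0.73). Vamp2 ran with the processed pseudogene Gm5844 (0.86) and with Chmp1a, a component of the ESCRT machinery of membranes (0.84). Both were called higher in the PWS-IC deletion, at 0.93 ± 0.0917 and 0.45 ± 0.110. They were picked for likeness to Vamp2 over libraries that include this comparison, so their calls are not separate support. Within groups the likeness of Chmp1a to Vamp2 dropped to 0.57. That of Gm5844 dropped to 0.29, so most of it lay in the differences between groups.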

How the data were processed

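Brain RNA of 16 mouse libraries, 4 in each of 4 groups, was sequenced from the poly(A) end (Lexogen QuantSeq, per the labels' protocols). The deposited files hold whole read counts per gene symbol; per the submitters' processing notes the authors used HISAT2, HTSeq and mm10, with versions, annotation and strand setting not given in the sources used here. The 5 rows that name no gene, 53.6% to 61.9% of tabled reads, stayed out of library sizes and tests. Library sizes and gene counts set the precision, and intervals at this depth cover the scatter between libraries.

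Counts were tested with edgeR 4.0.16 in R 4.3.3 (TMM factors, filterByExpr with a minimum count of 10 and total of 15, quasi-likelihood test). Each mutant was fitted with its own wild types, and both the difference of the mutant effects and the wild-type comparison in a fit of all 16 libraries. P-values were adjusted by Benjamini-Hochberg across every gene tested and called under 0.05. Each SE was obtained from the log2 fold change and the root of its F statistic. Alternatives used DESeq2 1.42.0, limma 3.58.1 (voom), other scaling factors and filters, a replicate block, a sex term and left-out libraries. The text names all 8 genes in each comparison, along with up to 4 called genes of each pathway list with the smallest p, and for each of the 8 the 2 other genes with the highest r among genes averaging 4 or more in log2 CPM. A gene that this rule names is not reported here. Members and lists were chosen with earlier results of these data known.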

Additional observations from a re-analysis of the deposited data

Results flagged for a closer look

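Cplx1 had 1 library far from the other 3 in each group of the Prepl model. In the wild types replicate 3 was at 102 CPM and its nearest neighbour at 118 CPM, a gap of 0.907 of the group's range. In the knockouts replicate 2 was at 81.5 CPM and its nearest neighbour at 104 CPM, a gap of 0.910 of the range. These were 2 of the 32 groups of 4 libraries examined, and chance gives about 1 in 20. Leaving out single libraries moved the Cplx1 log2 fold change between -0.23 and -0.10, with no call.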

How the results depend on the processing

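Of the 8 genes, 2 were called in the PWS-IC deletion with no low-count filter and with the replicate block, the added gene being Syp (0.35 and 0.41; adjusted p = 0.0110 and 0.0142 by edgeR). Leaving out single libraries gave 1 to 2, with 2 without wild-type replicate 2. In the difference of the mutant effects 1 gene, Vamp2, was called by DESeq2 and with no low-count filter, and left-out libraries gave 0 to 1, with 1 without Prepl knockout replicate 4. Vamp2 in the PWS-IC deletion was called under all 18 alternatives run. The Prepl comparison called 0 of the 8 and the wild-type comparison 3 of the 8 under each alternative run.

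Signs turned for values close to 0. When sex was added to the model of 16 libraries, Syt1 was 0.0099 and Syp -0.016 in the Prepl knockout, and Stx1a was -0.027 in the difference. Left-out libraries gave, in the Prepl knockout, -0.052 to 0.054 for Cplx2 and -0.057 to 0.095 for Syp, and in the PWS-IC deletion -0.12 to 0.014 for Cplx2. In the difference they gave -0.079 to 0.024 for Snap25, -0.0066 to 0.15 for Stx1a, -0.14 to 0.049 for Cplx1 and -0.0043 to 0.13 for Cplx2, and between the wild types -0.197 to 0.0046 for Vamp1. The cause was not tested.

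Counts over all genes moved further. The Prepl knockout had 36 called genes, 156 with no low-count filter, 18 in 1 fit of all 16 libraries and 12 to 103 with left-out libraries. The PWS-IC deletion had 616, and 945 with no low-count filter, 989 with the replicate block, 999 in 1 fit of 16, 1233 with sex in that fit, 1119 with sex in the fit of 8 (chosen after seeing the data) and 362 to 653 with left-out libraries. The difference had 112, and 195 by DESeq2, 222 with no low-count filter, 235 with the sex term and 67 to 134 with left-out libraries. Libraries with the same replicate number deviated together with r of -0.11 to 0.07 in the Prepl model. In the PWS-IC model r was 0.0047, 0.33, 0.35 and 0.27 for replicates 1 to 4. There replicates 1 and 2 were male and 3 and 4 female in both groups. The r values do not settle whether the PWS-IC numbers pair libraries. The labels do not say so, and the main fits used no pairing.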
